A study of Mus musculus with 6 samples.

Results

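The BBSome genes were followed in multiciliated ependymal cells of Edf1 knockout mice. The 10 genes were chosen by symbol from the 22851 genes of the deposited count table. They encode the 8 subunits of the complex (Bbs1, Bbs2, Bbs4, Bbs5, Bbs7, Ttc8, Bbs9 and Bbip1), the small GTPase Arl6 and the BBSome regulator Lztfl1. The BBSome is a coat-like protein complex that rides on intraflagellar transport (IFT) trains and carries membrane receptors out of the cilium. GTP-bound Arl6 recruits it to membranes, and mutations in its genes cause Bardet-Biedl syndrome in humans. Mice that lack BBSome subunits are known for enlarged brain ventricles, which are lined by ependymal cells whose beating cilia move cerebrospinal fluid.

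Radial glial cells, the progenitors of ependymal cells, were taken from brains of newborn (P0-P3) C57BL/6J mice and grown in medium with fetal bovine serum. Serum-free medium was then given for 6 days to induce multiciliated ependymal cells. The series has 2 genotypes, wild type (WT) and Edf1 knockout (KO) made with CRISPR/Cas9, with 3 libraries each that are described as biological replicates. Whether a replicate was 1 animal or a pool is not given in the sources used here. Edf1 encodes a transcriptional coactivator that also binds collided ribosomes, and the design asks which genes depend on it while ependymal cells form.

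The libraries held 13071766 to 28087006 counts. WT replicate 2, the library with the fewest, stood apart from the other WT libraries. Its chi-square per degree of freedom against them, squared differences over those of sampling noise, was 8.70 and 9.89. The other pairs within a genotype had 3.04 to 4.38. Without WT replicate 2, 4340 genes were called in place of 3833, and the same 7 BBSome genes. Edf1 was at 82.9 ± 2.85 CPM (counts scaled to library size) in WT, against 11.3 ± 1.72 CPM in the knockout (SD, n = 3 each), so 13.7% of the WT level was still counted. Markers of the labelled cell type were present in every library and were lower in the knockout: all 12 of the multiciliated ependymal list were called lower, with a median log2 fold change of -1.0005, and their summed level was 2182 to 2454 CPM in WT, against 1229 to 1302 CPM in the knockout. Of 10 microglial markers, 9 were called lower (summed level 1954 to 2107 CPM in WT, against 1302 to 1334 CPM in the knockout). Of 11 fibroblast, mural and endothelial markers, 7 were tested, all of fibroblasts and mural cells, and all 7 were called higher. The endothelial markers were among the 4 that did not pass the filter on low counts. The summed level of the list was 564 to 606 CPM in WT, against 727 to 814 CPM in the knockout. In the radial glia and astrocyte list, 3 of 8 markers were called higher and 2 lower, with a summed level of 9698 to 10197 CPM in WT, against 10658 to 11080 CPM in the knockout. None of these markers was at 0 in all libraries. Pituitary markers, of which 4 were tested, summed to 17.2 to 20.4 CPM in WT, against 28.96 to 35.5 CPM in the knockout. Prl, Pomc and Cga were called higher and Lhb lower, and Fshb was at 0 in all libraries. The sums hide large changes: the fitted log2 fold changes of the 4 ran from -1.37 to 10.4, with a median of 3.26. Summed levels in WT and the knockout were 254 to 329.8 and 274 to 290.2 CPM for neuron markers (2 of 7 called lower), 120.04 to 131 and 131 to 142 CPM for oligodendrocyte lineage markers (1 of 6 called higher) and 97.04 to 125 and 113 to 135 CPM for choroid plexus markers (1 of 4 called higher). Of 4 Y-linked genes, 2 were called higher, and their sum was 243 to 291 CPM in WT, against 292 to 329 CPM in the knockout. Across all tested genes, 14.2% were called lower and 12.7% higher, and the called counts of the marker lists were not tested against these shares. In bulk RNA, fewer cells of a type and less RNA per cell cannot be told apart. The part of these cell types in the results below was not tested.

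Loss of Edf1 went with a small fall of most BBSome genes. All 10 genes were tested, and 7 of them were called lower in the knockout by edgeR's quasi-likelihood test at an adjusted p-value under 0.05: Bbs1, Bbs5, Bbs7, Ttc8, Bbs9, Bbip1 and Lztfl1. Across all tested genes, 14.2% were called lower and 12.7% higher, 26.9% in all. No BBSome gene was called higher. The fitted value was below 0 for all 10, as it was for 49.5% of tested genes. The median log2 fold change was -0.27 over the 10 genes and 0.0029 over all 14243 tested genes. In 9 of the 10, each knockout library was below each WT library, a pattern found in 22.1% of tested genes. The exception was Bbs2. No member had every knockout library above every WT library, as 21.3% of tested genes did.

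**Figure D1:**
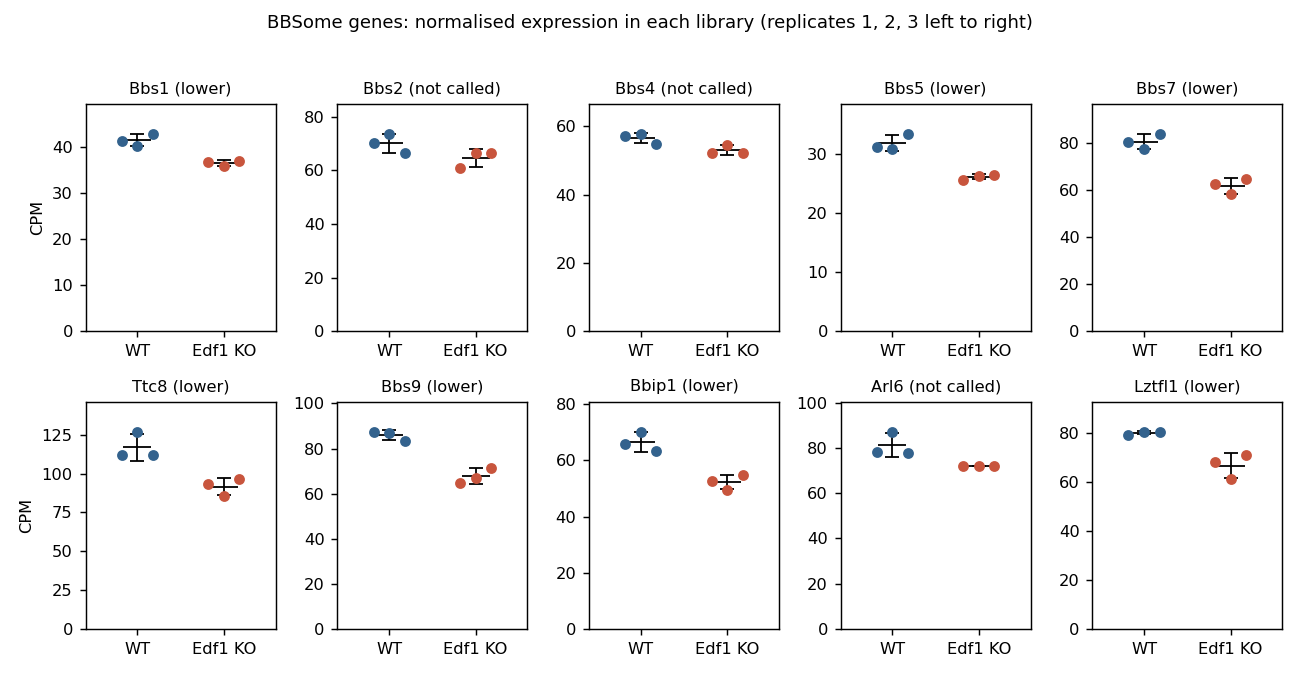
Normalised expression (CPM, vertical axes starting at 0) of the 10 BBSome genes in the 3 WT (blue) and 3 Edf1 KO (red) libraries, with the mean (horizontal bar) and SD (error bar), and in brackets the call by edgeR. The falls are small against the level of each gene, and the groups overlap in Bbs2 alone.

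The promoters of these genes were examined for motifs of the factors that drive ciliary genes, because most members moved in one direction. RFX factors bind the X-box, an inverted pair of half-sites, and Foxj1 is a forkhead factor. Promoters of 300 bases (250 before and 50 after the annotated start) came from RefSeq for GRCm38.p6, and all 10 genes were matched. The RFX half-site GTTGCC, read on both strands, was found in promoters of 4 genes (Bbs1, Bbs5, Bbs7 and Lztfl1) and in 12.5% of all 32851 promoters. Members were counted per gene, but shares of all promoters were counted per promoter, over genes tested or not, so the units differ. An inverted pair, GTNNCC followed by its reverse complement on the same strand, occurred with a gap of 2 bases in Bbs1, Bbs4 and Bbs7. That pair was found in 1.88% of all promoters, and in 338 of the 11342 tested genes with a promoter. With a gap of 3 bases the pair was found in Lztfl1 at 2 places and in 0.642% of all promoters. With a gap of 1 base it was found in no member and in 1.01%. The inverted pairs can overlap the half-site, as in Bbs7. The 4 windows that follow show 1 pair for each of these genes, 5′ to 3′ on the strand of the gene, with the pair in capitals.
Bbs7: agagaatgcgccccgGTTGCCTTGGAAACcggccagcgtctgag
Lztfl1: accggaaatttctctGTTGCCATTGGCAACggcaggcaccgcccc
Bbs1: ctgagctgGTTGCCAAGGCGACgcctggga
Bbs4: ctcagctgGTCGCCCGGGAAAC
The Bbs7 window is chr3:36613482-36613525 (minus strand), and its pair begins 121 bases before the RefSeq start, outside any GENCODE M21 gene. The Lztfl1 window is chr9:123717760-123717804 (minus strand), and its pair begins 164 bases before the RefSeq start, within an intron of Ccr9, which is annotated on the opposite strand. The second Lztfl1 pair, not shown, begins at base 7 of the transcript. The Bbs1 window is chr19:4906605-4906634 (minus strand), with the pair beginning at base 2 of the transcript, in the 5′ UTR of the first exon. The Bbs4 window is chr9:59353472-59353493 (minus strand), with the pair beginning at base 24 of the transcript, also in the 5′ UTR of the first exon.

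Members with and without an inverted pair were found both among the genes called lower and among those not called. Whether the pair goes with the change of the members was not tested. Of the 4 genes with an inverted pair, Bbs7 had the lowest fitted value of all members and Bbs4 the highest. Bbs5, Ttc8, Bbs9 and Bbip1, which were called lower, held no inverted pair in this window. Neither did Bbs2 or Arl6, which were not called. The window depends on the start used. For Bbs2 it spanned 94098460 to 94098759, and the GENCODE gene starts at 94098928 on the minus strand, so bases before that start were not searched. Among 338 tested genes with the 2-base-gap pair in a promoter, 114 (33.7%) were called lower and 20 (5.92%) higher, with a median log2 fold change of -0.13. Among the 11342 tested genes with a promoter in the RefSeq table, 14.4% were called lower and 12.3% higher. The 338 genes include Bbs1, Bbs4 and Bbs7. The difference between these shares, and the part of cell types in it, was not tested. The forkhead core GTAAACA (3.65% of all promoters) and the palindromic NRF1 core (0.971%) matched no member. The CCAAT box, CCAAT, matched 4 members (Arl6, Bbip1, Bbs1 and Lztfl1) and 37.4% of all promoters, the ETS core CCGGAAGT matched Lztfl1 and 3.89%, and a looser half-site, GTTNCC, matched 6 members and 45.3%. A match is a description of these letters, and binding was not measured. Of the factors themselves, Foxj1 had 788 ± 43.4 CPM in WT, against 523 ± 10.3 CPM in the knockout and was called lower (log2 fold change -0.59), Rfx2 was called lower at -0.24, and Rfx3 had 39.7 ± 8.92 and 40.002 ± 4.14 CPM and was not called (SD, n = 3).

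Bbs2, Bbs7 and Bbs9 encode the subunits that form the core of the complex, on which the others assemble. Bbs7 and Bbs9 were called lower and Bbs2 was not, and the difference between them was not tested. Bbs7 (chromosome 3, 36573142 to 36613477, minus strand of GRCm38) had 80.3, 77.5 and 83.8 CPM in WT replicates 1, 2 and 3 and 62.5, 58.1 and 64.6 CPM in knockout replicates 1, 2 and 3. Every knockout library was below every WT library. Its log2 fold change of -0.38 (SE 0.061, 95% confidence interval -0.51 to -0.25) was the lowest fitted value of the 10 genes, and edgeR gave it an adjusted p-value of 0.000526. Bbs9, a scaffold subunit with a beta-propeller (chromosome 9, 22475715 to 22888280, plus strand), had 87.5, 86.7 and 83.5 CPM in WT, against 64.6, 66.9 and 71.6 CPM in the knockout. These groups were also apart, and the log2 fold change was -0.34 (SE 0.058, adjusted p-value 0.000907 by edgeR).

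Bbs2 (chromosome 8, 94067954 to 94098928, minus strand) had 70.1, 73.7 and 66.4 CPM in WT, against 60.8, 66.6 and 66.6 CPM in the knockout. Knockout replicates 2 and 3 lay just above WT replicate 3. The log2 fold change of Bbs2 was -0.11 (SE 0.062), with a 95% confidence interval from -0.25 to 0.022 and an adjusted p-value of 0.206 by edgeR. The interval still holds falls of the size that passed the test in Bbs1, so a small change of Bbs2 is not shown to be absent. Without knockout replicate 1 the value was -0.072.

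Ttc8 and Bbs4 encode subunits built of tetratricopeptide repeats, and Bbs4 is known to bind the centriolar satellite protein Pcm1. Ttc8 (chromosome 12, 98920574 to 98983238, plus strand) had 111.9, 127 and 111.8 CPM in WT, against 93.2, 85.7 and 96.3 CPM in the knockout. WT replicate 2 was the highest. The groups were apart, and the log2 fold change was -0.35 (SE 0.067, adjusted p-value 0.00223 by edgeR). Without WT replicate 2 the value was -0.28, still called.

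Bbs4 (chromosome 9, 59321990 to 59353508, minus strand) had 57.1, 57.8 and 54.9 CPM in WT, against 52.2, 54.6 and 52.1 CPM in the knockout. Knockout replicate 2 lay just below WT replicate 3. The log2 fold change of -0.096 (SE 0.057, interval -0.22 to 0.027) was not called, with an adjusted p-value of 0.238 by edgeR. The correction for GC content and transcript length moved it to -0.051. Exons of Bbs4 overlap those of Adpgk on the opposite strand over 194 bases (3.21% of its exon length), and without knowledge of strand such reads cannot be assigned. Adpgk had 18.8 ± 2.01 CPM in WT, against 22.2 ± 0.567 CPM in the knockout (SD, n = 3), and was not called.

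Bbip1 encodes the smallest subunit, which is needed for assembly of the complex. It lies on chromosome 19 (53929861 to 53944627, minus strand) and had 65.8, 70.2 and 63.2 CPM in WT, against 52.7, 49.5 and 54.6 CPM in the knockout. The groups were apart, and the log2 fold change was -0.34 (SE 0.063, adjusted p-value 0.00164 by edgeR). Its start lies 321 bases from that of Shoc2, which is transcribed in the opposite direction, and the exons of the pair overlap by 97 bases (2.20%). Shoc2 had 67.02 ± 4.32 CPM in WT, against 61.3 ± 1.97 CPM in the knockout (SD, n = 3), with a log2 fold change of -0.13 that was not called (adjusted p-value 0.150 by edgeR). The difference between these neighbours was not tested.

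Bbs5 encodes the subunit with pleckstrin-homology-like domains that bind membrane phosphoinositides. On chromosome 2 (69647171 to 69667571, plus strand), it had 31.3, 31.0003 and 33.5 CPM in WT, against 25.7, 26.35 and 26.6 CPM in the knockout. The knockout libraries lay within a narrow range below all WT libraries. The log2 fold change was -0.28 (SE 0.071, adjusted p-value 0.0102 by edgeR).

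Bbs1 and Arl6 form the contact by which the complex is held at membranes: GTP-bound Arl6 binds the beta-propeller of Bbs1. Both had small values near the threshold. Bbs1 (chromosome 19, 4886878 to 4906628, minus strand) had 41.3, 40.1 and 42.8 CPM in WT, against 36.7, 35.7 and 36.96 CPM in the knockout. The groups were apart, with a log2 fold change of -0.18 (SE 0.063) and an adjusted p-value of 0.0483 by edgeR. That call was lost without WT replicate 1 (adjusted p-value 0.117), WT replicate 3 (0.138), knockout replicate 1 (0.123), knockout replicate 2 (0.137) or knockout replicate 3 (0.118), each by edgeR, and under 11 of 14 alternatives in all. The value stayed between -0.24 and -0.16 in them.

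Arl6 (chromosome 16, 59612949 to 59639391, minus strand) had 78.1, 87.2 and 77.9 CPM in WT, against 72.0, 71.8 and 71.9 CPM in the knockout. The knockout libraries were nearly equal to one another, and all lay below WT. The log2 fold change of -0.17 (SE 0.060, interval -0.30 to -0.041) had an adjusted p-value of 0.0520 by edgeR and was not called. WT replicate 2 was the highest library here as well, and without it the value was -0.12. Exons of Arl6 overlap those of 4930547E14Rik on the opposite strand over 55 bases (2.62%), with the same limit on assigning reads. 4930547E14Rik is not in the count table under that name, so its level is not known here.

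Lztfl1, which binds the complex and restrains its entry into cilia, was the regulator that fell. It lies on chromosome 9 (123694416 to 123717697, minus strand) and had 79.4, 80.4 and 80.6 CPM in WT, against 68.1, 61.1 and 71.02 CPM in the knockout. The WT libraries were close together and the knockout libraries spread below them, with knockout replicate 2 the lowest. The log2 fold change was -0.26 (SE 0.063, adjusted p-value 0.00870 by edgeR). Without knockout replicate 2 the value was -0.20 and no longer passed (adjusted p-value 0.0504 by edgeR). A correction for GC content and transcript length moved it to -0.44, more than 1.5 times the reported size. Lztfl1 had the lowest GC content of the 10 transcripts (37.5%) and the longest coding transcript (6541 bases), and 8.66% of its 31-mers also occur in a transcript of another gene. Its exons overlap those of Gm17200 on the opposite strand over 490 bases (4.39% of its exon length), and these reads cannot be assigned either. Gm17200 is not in the count table under that name, so its level is not known here.

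**Figure D2:**
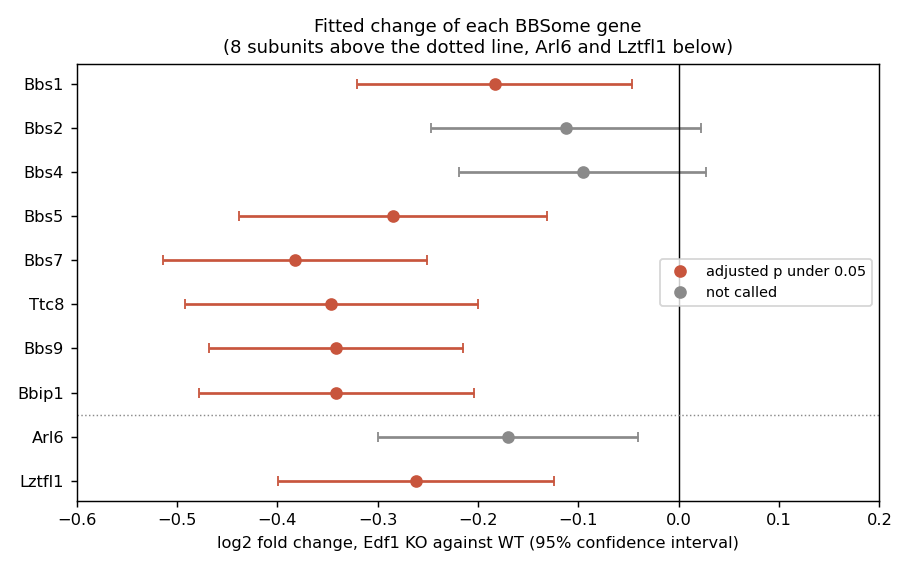
Fitted log2 fold change of each BBSome gene, Edf1 KO against WT (points), with its 95% confidence interval (lines). Red points passed an adjusted p-value of 0.05 by edgeR and grey points did not; Bbs2 and Bbs4 have intervals that reach above 0, from -0.25 to 0.022 and from -0.22 to 0.027.

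Bbs7 and Bbs4 had the lowest and the highest fitted value of the 10 genes. The pair was picked by these values, which fixes the direction of its ratio, so the ratio is only a description and whether the members differ in their change was not tested. The ratio of Bbs7 to Bbs4, from CPM with a prior count of 2 and not scaled for length, was 1.40, 1.34 and 1.53 in WT, against 1.20, 1.06 and 1.24 in the knockout.

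Within the knockout the highest and lowest values of the members fell mostly on the same libraries. The shares over all tested genes were not computed, so these counts are only a description. Knockout replicate 3 had the highest value for 8 of the 10 genes, all but Arl6 and Bbs4. Knockout replicate 2 had the lowest value for 6 of them (Bbs1, Bbs7, Ttc8, Bbip1, Arl6 and Lztfl1). In WT the extremes lay mostly in replicates 2 and 3, apart from the highest Bbs9 and the lowest Lztfl1 value in replicate 1. WT replicate 2 was the highest for Bbs2, Bbs4, Ttc8, Bbip1 and Arl6 and the lowest for Bbs1, Bbs5 and Bbs7. WT replicate 3 was the highest for Bbs1, Bbs5, Bbs7 and Lztfl1 and the lowest for Bbs2, Bbs4, Ttc8, Bbs9, Bbip1 and Arl6.

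Levels were compared between genes per length, as CPM per kilobase of the union of annotated exons (GENCODE M21, GRCm38). Arl6 was the most abundant in WT, at 38.6 ± 2.52 CPM per kb, followed by the subunit gene Ttc8 at 30.9 ± 2.33 and Bbs2 at 21.2 ± 1.09 (SD, n = 3 throughout). Bbip1 (15.1 ± 0.809), Bbs7 (14.9 ± 0.593), Bbs9 (13.8 ± 0.338) and Bbs5 (13.1 ± 0.562) formed a middle group. Within it, Bbip1 and Bbs7 overlapped in the 3 WT libraries, and so did Bbs9 and Bbs5. Bbs4 (9.37 ± 0.249), Lztfl1 (7.19 ± 0.057) and Bbs1 (5.39 ± 0.174) were the lowest and did not overlap with one another. With this length the knockout had the same order, from 34.3 ± 0.044 CPM per kb for Arl6 to 4.75 ± 0.086 for Bbs1.

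The order depended on the gene length used. Per kilobase of the longest protein-coding transcript, Ttc8 led in WT at 51.5 ± 3.88 CPM per kb and overlapped with Arl6 at 47.8 ± 3.12. Bbs2 (22.9 ± 1.18), Bbs4 (22.5 ± 0.597) and Bbs5 (21.8 ± 0.935) then lay side by side, each overlapping with the next. Lztfl1 and Bbs1 were the lowest with both lengths. With the coding transcript the order in the knockout was not that in WT: Arl6 came before Ttc8, and Bbs9 moved from place 5 to place 7, behind Bbs2 and Bbs4.

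**Figure D3:**
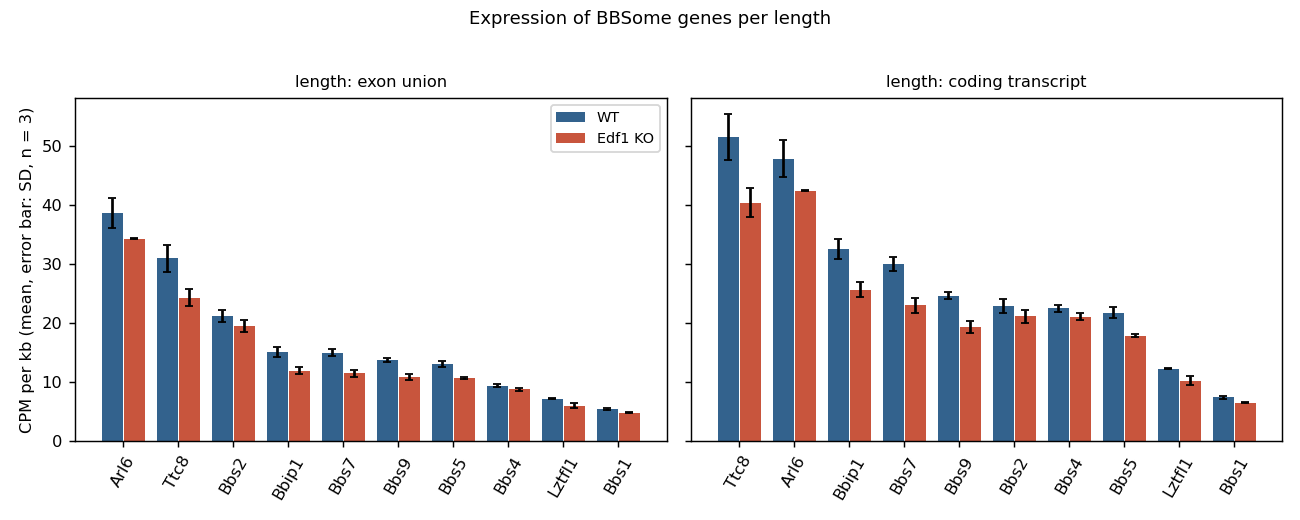
Expression of the BBSome genes in CPM per kilobase (bars: mean, error bars: SD, n = 3) in WT (blue) and Edf1 KO (red), with the exon union (left) or the longest coding transcript (right) as length. Arl6 and Ttc8 are highest and Lztfl1 and Bbs1 lowest with both lengths, and the place of Bbs2 and Bbs4 moves.

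Each subunit's share of the summed per-length expression of the 8 subunits was also compared. The share of Bbs2 was 17.1 ± 0.487% in WT, against 19.1 ± 0.957% in the knockout, and that of Bbs4 was 7.58 ± 0.135% and 8.59 ± 0.443% (exon union, SD, n = 3). Knockout and WT libraries were apart for both genes, also with coding transcript length (10.7% and 12.1% for Bbs2, 10.6% and 12.05% for Bbs4). For Bbs5, Bbs7, Ttc8 and Bbip1 the shares overlapped between the genotypes with both lengths. The share of Bbs9 was apart with the exon union alone (11.1 ± 0.3002% and 10.6 ± 0.306%), and that of Bbs1 with the coding transcript alone. Shares sum to a whole, so a rise in one can come from a fall in others.

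Genes that work with the BBSome were then read from the same fit, in lists written with earlier results of these data known. The counts called in each list stand beside 14.2% called lower and 12.7% called higher over all tested genes. The complex is assembled with the help of the chaperonin-like proteins Mkks, Bbs10 and Bbs12 and the CCT chaperonin. Of 11 assembly genes, 6 were called lower and none higher, with a median of -0.15 on the log2 scale. All 6 were CCT subunits, from Cct7 (-0.32, adjusted p-value 0.000646 by edgeR) and Tcp1 (-0.27) to Cct4 (-0.16) and Cct6a (-0.15). The calls of Cct4 and Cct6a were each lost without WT replicate 1 or any 1 of the knockout libraries, and that of Cct6a also without WT replicate 3 and under the GC and length correction. Their adjusted p-values reached 0.126 and 0.133 over all alternatives. The count fell from 6 to 2 without knockout replicate 1, 2 or 3. The 3 chaperonin-like genes specific to the BBSome were not called: Mkks had 24.4 ± 2.21 CPM in WT, against 22.4 ± 0.850 CPM in the knockout, Bbs10 had 14.9 ± 1.27 and 16.9 ± 2.099 CPM, and Bbs12 had 17.8 ± 2.03 and 20.1 ± 1.80 CPM (SD, n = 3).

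Other genes mutated in Bardet-Biedl syndrome or linked to it encode IFT, transition zone and centriolar proteins. Of 11 tested, 6 were called lower and none higher, with a median of -0.33. The called genes included Ift172 of the IFT trains (-0.50), Ift27, a GTPase that links the BBSome to IFT (-0.37), and the centriolar gene Sdccag8 (-0.33). Their adjusted p-values were at most 0.00202 by edgeR.

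Among 14 partners in ciliary traffic, 8 were called lower and none higher, with a median of -0.20. Ift22, a small GTPase of the IFT trains, was the lowest at -0.60 (adjusted p-value 0.000115 by edgeR), and Tulp3, which brings receptors into cilia, was at -0.41 (0.000104). Arl3, a GTPase that releases lipidated cargo in cilia, was at -0.20, and the phosphoinositide phosphatase gene Inpp5e was at -0.21. The call of Arl3 was lost without knockout replicate 1 or 2 and under the GC and length correction, and that of Inpp5e without any 1 library other than WT replicate 2 and in 11 of 14 alternatives in all. Their adjusted p-values reached 0.1097 and 0.168 over all alternatives. Without knockout replicate 2, 5 genes of this list were called.

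Receptors and other membrane proteins of cilia, listed as BBSome cargo, were often at low counts, and 6 of 12 passed the filter on low counts. Over all tested genes, 14.2% were called lower and 12.7% higher. Of the 6 here, the hedgehog receptor gene Ptch1 was the one called, and it was higher. The WT libraries had 214, 162 and 220.1 CPM and the knockout libraries 325, 321 and 307 CPM. The fitted difference was 0.67 on the log2 scale (SE 0.090, adjusted p-value 0.000139 by edgeR). The groups were apart, with WT replicate 2 the lowest. Its signalling partner Smo had 199.4 ± 5.38 CPM in WT, against 192 ± 10.2 CPM in the knockout (SD, n = 3) and was not called. Gpr161, a ciliary receptor that restrains hedgehog signalling, had 10.3 ± 1.99 CPM in WT, against 13.4 ± 1.79 CPM in the knockout and was not called (adjusted p-value 0.0874 by edgeR). The list had 2 calls in place of 1, both higher, without WT replicate 1 or with the replicate block, and 1 higher and 1 lower without WT replicate 3.

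The BBSome moves with IFT trains and crosses the transition zone, and genes of both were set beside it. Of 18 IFT-B genes, which serve transport towards the tip, 17 were called lower, with a median log2 fold change of -0.41. The called genes ran from Ift22 (-0.60) and Ift20 (-0.57) to Ift57 (-0.25) and Ift52 (-0.25). Of 6 IFT-A genes, 4 were called lower, with a median of -0.26: Ift140 (-0.56), Ift43 (-0.40), Wdr35 (-0.30) and Wdr19 (-0.21). Of 17 transition zone genes, 9 were called lower, with a median of -0.23 and a range of calls from Tmem107 (-0.80) and Nphp4 (-0.64) to Iqcb1 (-0.21) and Cc2d2a (-0.20). The call of Wdr19 was lost without WT replicate 1 or knockout replicate 3, that of Cc2d2a without WT replicate 1 or knockout replicate 2, and that of Iqcb1 under DESeq2 and without WT replicate 1 or any 1 knockout library. Their adjusted p-values reached 0.0645, 0.0613 and 0.150 over all alternatives. The difference between these lists and the BBSome, whose median was -0.27, was not tested, and some genes are in more than 1 list.

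**Figure D4:**
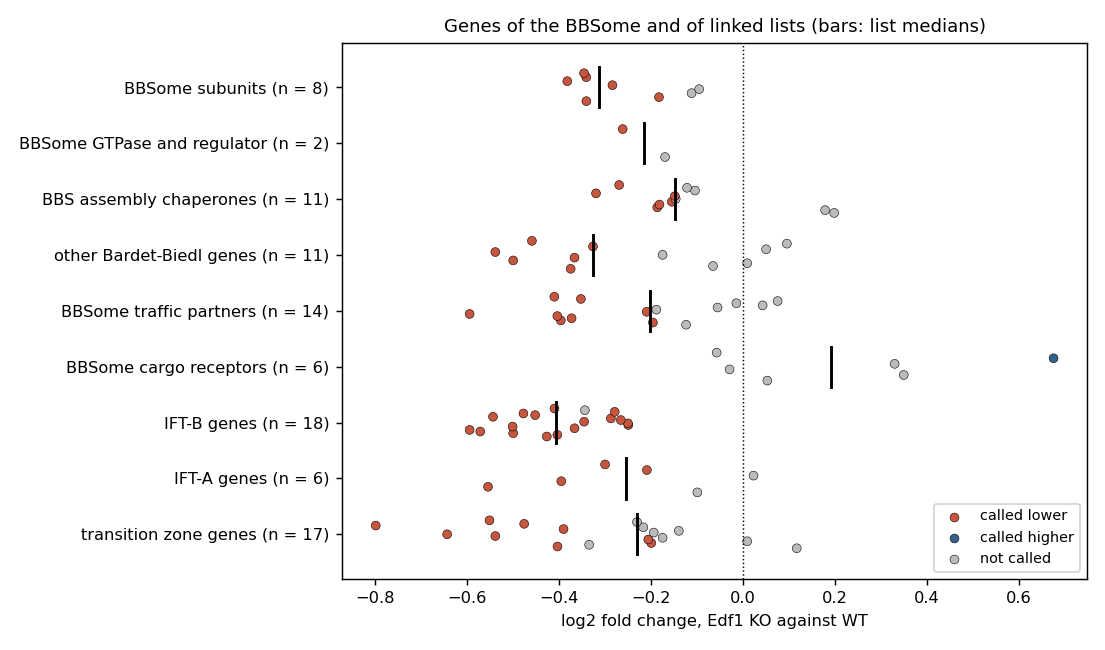
Fitted log2 fold change, Edf1 KO against WT, of each tested gene (points) in the BBSome and in 7 linked lists, with list medians (bars). Red genes were called lower, blue higher and grey not called at an adjusted p-value of 0.05 by edgeR; the 8 subunits have a median of -0.31, the 18 IFT-B genes one of -0.41 and the 6 tested genes of the cargo list one of 0.19.

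The genes whose pattern over the 6 libraries was most like that of the BBSome genes were found by Pearson correlation of log2 CPM with the mean of the standardised values of the 10 genes. The 5 highest were Phkg1, 1700008O03Rik, Ppp1r36, Zmynd10 and C1qc, with r of 0.999 each. Phkg1 encodes a catalytic subunit of phosphorylase kinase, Zmynd10 an assembly factor of axonemal dyneins and C1qc a complement component of microglia. Their log2 fold changes were -0.64 for Phkg1, -1.04 for 1700008O03Rik, -0.91 for Ppp1r36, -1.15 for Zmynd10 and -0.39 for C1qc. These correlations rest on 6 libraries that also differ by genotype, and 1658 of 14233 other tested genes (11.6%) had r above 0.9. Among the members, Bbs9 (0.984) and Bbip1 (0.983) were closest to the common pattern and Bbs2 (0.781) and Bbs4 (0.838) farthest, where each gene is itself part of the mean.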

How the data were processed

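The authors' deposited table holds raw read counts per gene symbol, 1 column per library. GRCm38, FastQC 0.11.2, cutadapt 1.11 and HISAT2 2.1.0 are listed in the submitters' processing notes. The counting program, annotation and strand setting are not given in the sources used here. The table had 0 unused columns and 0 rows that name no gene.

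Counts were filtered with filterByExpr (14243 of 22851 genes kept), scaled by TMM and tested with the quasi-likelihood test of edgeR 4.0.16 in R 4.3.3 on all 6 libraries, Edf1 KO against WT, with no covariate and Benjamini-Hochberg adjustment over all tested genes (threshold 0.05). The standard error was taken from the fitted change and its F statistic (change over the root of F). CPM used TMM-scaled library sizes, and log2 CPM a prior count of 2. P-values set the difference between the genotypes against the variation between these libraries. Libraries of one genotype had a chi-square per degree of freedom of at least 3.04, more than sampling noise alone gives, so none was treated as a repeat run of another. This cannot show whether they came from separate animals.

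Named genes were the 10 members, Edf1, of each list all called genes where 4 or fewer were called and otherwise the 2 lowest and 2 highest called, and the 5 genes most like the members. A gene that this rule names is not reported here. Other genes named, including neighbours, were chosen after their values were seen. The members and lists were chosen with earlier results of these data known. Alternatives were DESeq2 1.42.0, limma 3.58.1 (voom), other scalings and filters, leaving out each library, a block for the replicate number, a threshold of 0.01, and a correction for GC content and transcript length (splines with 4 degrees of freedom, properties known for 98.9% of tested genes). The coding transcript length and the pairs with gaps of 1 and 3 bases were added after seeing the data. The fits were tested on simulated data. Gene models came from GENCODE M21. One listed pituitary marker name, 1 sex-linked gene and 1 Bardet-Biedl gene name were not matched and are not analysed here.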

Additional observations from a re-analysis of the deposited data

How the results depend on the processing

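All 10 genes stayed below 0 under each of the 14 alternatives at the threshold of 0.05 (other scalings, filters and tools, the replicate block, the GC and length correction and each library left out). Bbs5, Bbs7, Ttc8, Bbs9 and Bbip1 were called in all 14, Lztfl1 in 13, Bbs1 in 3, Arl6 in 1, and Bbs2 and Bbs4 in 0. The median of the 10 genes was -0.30 to -0.25 and the count called 5 to 7 when 1 library was left out, the lowest count without knockout replicate 2. Calls among the linked lists numbered 46, or 37 to 48 with 1 library left out. Over all genes, 3833 were called, or 2658 to 4340 with 1 library left out, and 2213 at an adjusted p-value under 0.01, where 5 of the 10 BBSome genes were called.

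With the replicate block, 4065 genes were called (3683 shared with the reported fit) and 7 BBSome genes: Arl6 gained its call at -0.17 (adjusted p-value 0.0484 by edgeR) and Bbs1 lost it (0.0590). Deviations of same-numbered libraries had correlations of 0.069, 0.060 and 0.037, and those of differently numbered libraries -0.072 to 0.029. The same-numbered values were small but lay above all the others. The labels state no pairing and none was assumed, and whether the libraries were paired was not tested. At these depths the members had 399 to 2971 counts per library, and the 2 smallest changes, of Bbs2 and Bbs4, had confidence intervals that reached above 0.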
